A study of Mus musculus with 12 samples.

Results

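The perilipins and lipid droplet lipolysis genes are a list of 10 genes from several families. Their products coat the hepatocyte's fat droplets, take their triglyceride apart or regulate that breakdown. They were taken by symbol from count tables of 50559 genes: Plin2, Plin3, Plin5, Cideb, Pnpla2, Abhd5, G0s2, Hilpda, Lipe and Mgll. The perilipins Plin1 and Plin4 are not on this list and are among the related genes below. All 10 were in the tables, and all 10 passed the filter on low counts (a mean of at least 10 reads over the libraries compared) in every comparison.

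Livers of C57BL/6N mice were sequenced in 4 groups of 3 libraries, 12 in all. For 12 weeks the NCD mice ate normal chow and the HFD mice a high-fat diet in which fat supplied 60% of the energy, and the HFD+C1 and HFD+C2 mice ate that diet and were dosed into the peritoneum with C1 or C2, 5 mg/kg a day, for the same time. The series title describes both compounds as CYP4A inhibitors, which act on cytochrome P450 enzymes that hydroxylate fatty acids. Age, sex, and whether the NCD and HFD mice were injected with vehicle are not given in the sources used here, so diet plus compound differs from diet by the compound and possibly by the injection. The labels call the libraries biological replicates without naming the animals.

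Neutral fat in a liver cell is stored in droplets with a phospholipid skin, and perilipins sit on that skin and govern which lipases reach the fat inside. Lipolysis goes stepwise: PNPLA2 (ATGL), switched on by ABHD5 (CGI-58) and held back by G0S2 and HILPDA, removes the first fatty acid from triglyceride, LIPE (hormone-sensitive lipase) acts on the diglyceride, and MGLL (monoacylglycerol lipase) releases the last fatty acid. In liver these fatty acids feed oxidation and lipoprotein assembly and serve as ligands of the receptor PPARalpha.

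Levels are given as CPM, counts of a gene relative to 1000000 reads in genes, scaled between libraries by edgeR's TMM factors. The shallowest library, NCD replicate 2, held 4281210 reads in genes and the deepest, HFD replicate 1, held 32124248. NCD replicate 1 had 58.2% of its reads outside genes and HFD+C2 replicate 1 had 47.1%, while the other 10 had 27.3% to 40.7%, so values without them are also given for changes of the 10 genes that involve them. Albumin, the defining hepatocyte transcript, stood at 10662 CPM in the first of these and at 45156 and 41887 CPM in the other NCD libraries. Summed over 6 hepatocyte markers the range was 32379 to 79090 CPM in NCD and 89739 to 107047 CPM in HFD, a sum that in HFD was mostly Alb; Serpina1c (0.648-fold) and Cps1 (0.798-fold) had lower means in HFD, and none of the 6 was called. Of 7 adipocyte markers found in the tables, the fat-cell genes Adipoq and Retn had at most 3 reads in each of the 12 libraries. Plin4 was the 1 adipocyte marker called higher in HFD than in NCD, with means of 17.3 and 0.936 CPM. Lep reached 0.422 CPM in NCD replicate 2 and 0.227 CPM in HFD+C1 replicate 1, and Plin1 0.765 CPM in NCD replicate 1 but at most 0.0332 CPM in HFD, while the list's sum, carried by genes that liver also makes, was 1725 to 3000 CPM in NCD and 2843 to 3203 CPM in HFD. Of 7 stellate cell and fibroblast markers 6 were higher in HFD than in NCD, with Col1a1 (5.99-fold) and Colec11 (1.99-fold) called, and of 6 endothelial markers 5 were higher, with Lyve1 (4.61-fold) called, against 2.59% of all genes called higher. The sums of 7 macrophage markers ran from 159 to 259 CPM in NCD, 145 to 193 in HFD, 238 to 311 in HFD+C1 and 189 to 423 in HFD+C2. The part of these marker differences in the results was not tested, and in bulk liver fewer cells of a type and less RNA per cell cannot be told apart.

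Promoters are shown for Plin2, Pnpla2 and Mgll, a coat protein and the lipases of the first and last steps, whose libraries did not overlap between HFD and NCD. Each window runs from 250 bases before to 50 bases after a transcript start, on the gene's strand, from RefSeq (GRCm38.p6). Capitals mark AGGTCA (the half-site of many nuclear receptors, PPARs included), ACGTG (the core to which hypoxia factors and E-box proteins bind) and GGGCGG (the GC box), each on either strand, and runs of CACGTG hold ACGTG on both strands at once.
Plin2, chr4:86670010-86670309, minus strand: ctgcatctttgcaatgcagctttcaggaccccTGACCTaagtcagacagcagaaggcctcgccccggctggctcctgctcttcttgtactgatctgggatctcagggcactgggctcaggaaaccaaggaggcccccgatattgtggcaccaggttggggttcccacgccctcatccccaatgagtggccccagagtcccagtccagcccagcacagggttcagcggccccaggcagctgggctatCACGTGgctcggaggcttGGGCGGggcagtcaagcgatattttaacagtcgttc
Pnpla2, chr7:141454938-141455237, plus strand: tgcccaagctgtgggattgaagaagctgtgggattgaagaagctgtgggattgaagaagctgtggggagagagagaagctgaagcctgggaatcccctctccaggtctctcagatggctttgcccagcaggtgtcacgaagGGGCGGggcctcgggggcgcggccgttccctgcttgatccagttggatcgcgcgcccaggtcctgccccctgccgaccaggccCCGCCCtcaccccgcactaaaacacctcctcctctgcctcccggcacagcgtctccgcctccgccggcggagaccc
Mgll, chr6:88724162-88724461, plus strand: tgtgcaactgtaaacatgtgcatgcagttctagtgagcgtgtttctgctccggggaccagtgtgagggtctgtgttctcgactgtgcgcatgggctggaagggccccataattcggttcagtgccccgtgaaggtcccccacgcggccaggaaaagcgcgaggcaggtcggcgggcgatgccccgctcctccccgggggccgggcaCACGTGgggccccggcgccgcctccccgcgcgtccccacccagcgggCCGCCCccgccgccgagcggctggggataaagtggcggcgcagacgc

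The 10 genes have 14 such windows among 32851 in the table. GGGCGG was in 13 of the 14 windows and in at least 1 window of each of the 10 genes, against 35.7% of all windows. ACGTG was in 5 of the 14 windows (those of Plin2, Hilpda, Lipe and Mgll), against 19.6% of all windows. AGGTCA was in 4 of the 14 windows (those of Plin2, Plin5 and Abhd5), against 16.3% of all windows. A direct repeat of AGGNCA with 1 base between the copies, a form of the PPAR element, was in 0 of the 14 windows and in 0.381% of all windows. A match is a description of letters in these 300 bases.

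The 10 genes covered a wide span of levels in every group (the plot of level per length). Per kb of exon, G0s2 and Plin2 were the most abundant: in NCD G0s2 stood at 286 ± 113 CPM per kb (SD, n = 3) and Plin2 at 144 ± 31.1, with overlapping libraries (170 to 396 and 118 to 179). In HFD G0s2 was at 302 ± 26.7 and Plin2 at 223 ± 21.9 CPM per kb, and those libraries did not overlap. With the length of the longest coding transcript in place of all exons, Plin2 came before G0s2 in HFD and HFD+C1, so their order depends on the length used. Plin5, Mgll and Pnpla2 followed in that order in all 4 groups, at 42.6 ± 5.09, 30 ± 5.47 and 17.8 ± 2.52 CPM per kb in HFD, with no overlap between neighbours there. Plin3 (7.17 ± 0.492) and Abhd5 (3.94 ± 0.258) came next in HFD, and Cideb, Lipe and Hilpda lay lowest, at 1.44 ± 0.561, 1.34 ± 0.401 and 1.23 ± 0.24 CPM per kb, with overlapping libraries. The transcript of the inhibitor G0s2 thus stood far above that of its target Pnpla2 in each group, while the second inhibitor, Hilpda, stood below Pnpla2.

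**Figure D1:**
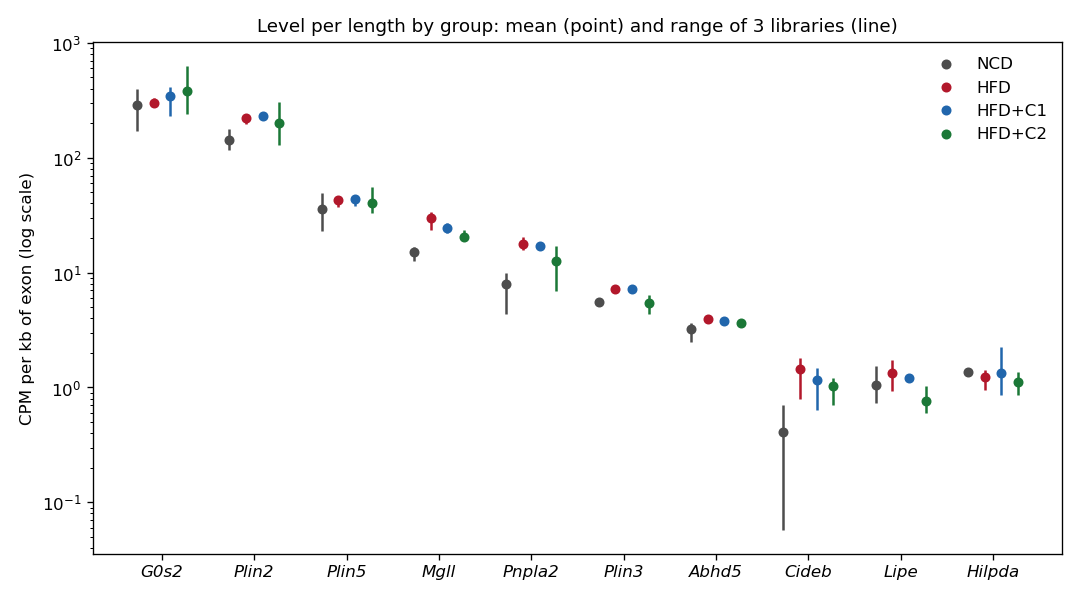
Level of each of the 10 genes in CPM per kb of exon on a log axis, with points for the mean of 3 libraries and lines from the lowest to the highest library in NCD, HFD, HFD+C1 and HFD+C2. G0s2 and Plin2 lie above 100 CPM per kb in every group mean and Cideb, Lipe and Hilpda near 1.

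The diet comparison, HFD against NCD, asked what 12 weeks of fat did to these genes. Mgll, the lipase of the last step, rose 2.02-fold and was the 1 gene of the 10 that passed edgeR's quasi-likelihood test at an adjusted p under 0.05 over all 13864 genes tested, where 6.03% of all genes were called and 2.59% were called higher. Pnpla2, the lipase of the first step, had the larger point estimate at 2.27-fold but missed the threshold. An unadjusted p under 0.05 was reached by 5 of the 10 (Plin2, Plin3, Cideb, Pnpla2 and Mgll), against 28.9% of all genes; all 5 were higher, while of all genes 1796 were higher and 2206 lower. That count of 5 became 2 without HFD replicate 1 and 3 without NCD replicate 3, HFD replicate 2 or HFD replicate 3, and it was also 3 with a mean of at least 50 counts required or with scaling by reads in genes alone. Cideb, counted among those 5, passed the filter only through HFD, with a mean of 7.67 reads in NCD and 60.7 in HFD. In 6 of the 10, Cideb included, every HFD library lay above every NCD library, as in 18.4% of all genes. Scaled by reads in genes alone this held for 4 (Plin2, Plin3, Pnpla2 and Mgll) against 11.9% of all genes, Cideb and Abhd5 overlapped, and Hilpda lay wholly lower in HFD. The median log2 change was 0.36 over the 10 genes and -0.02 over all genes tested, and the 10 genes were chosen with earlier results of these data known. Scaling by reads in genes alone, without TMM, moved the median of all genes to -0.24 and that of the 10 to 0.14.

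**Figure D2:**
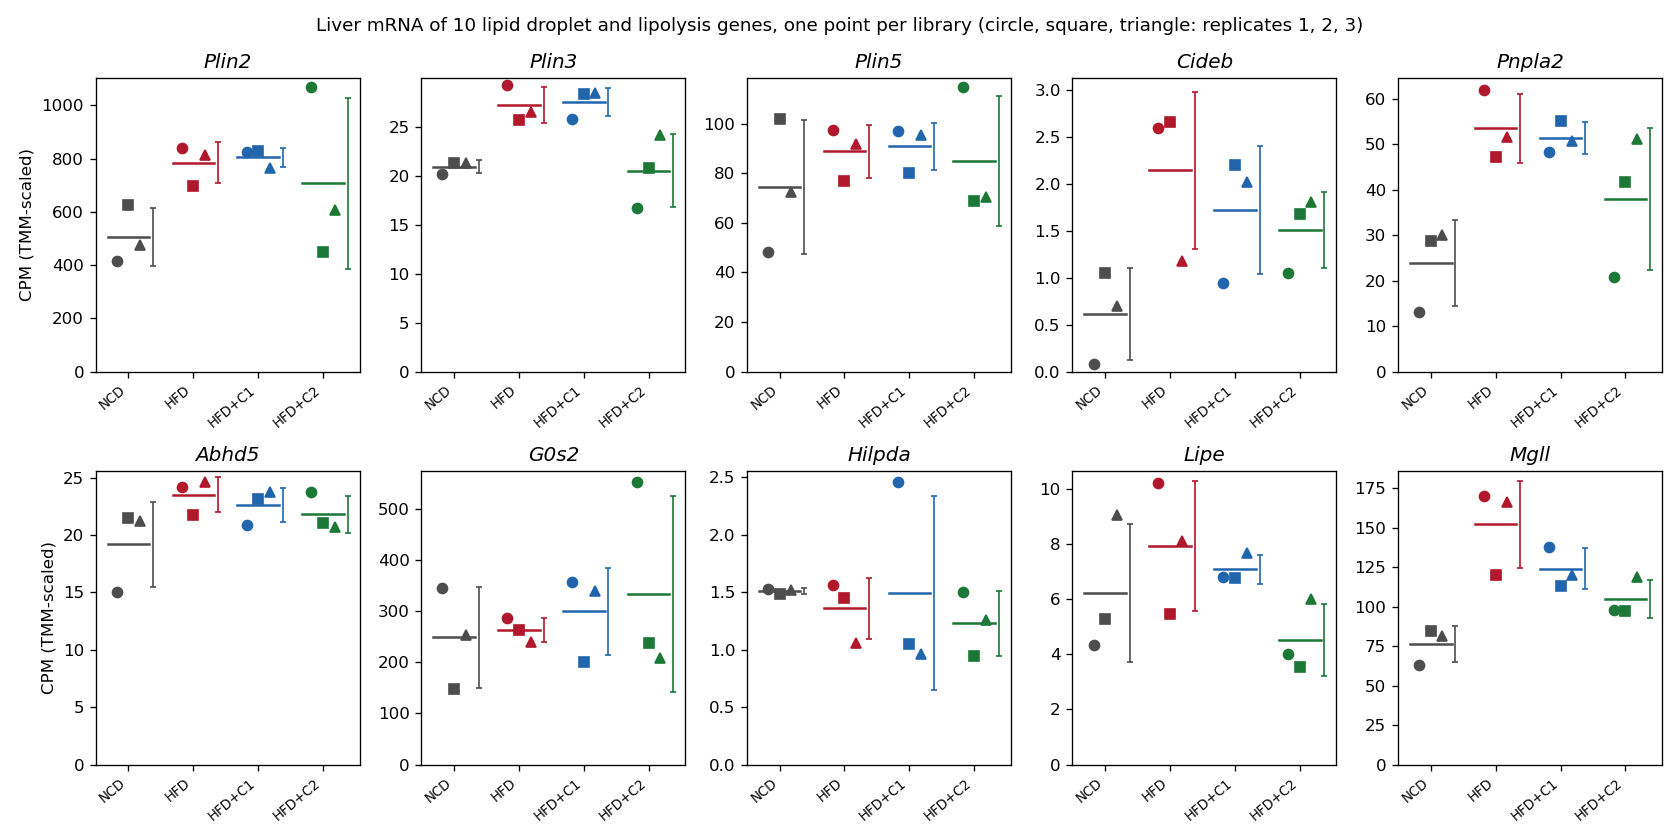
CPM of the 10 genes in each of the 12 libraries, one panel per gene with its own axis from 0, circles, squares and triangles for replicates 1, 2 and 3, a horizontal line for the group mean and a bar for ± 1 SD. For Mgll the HFD libraries (120 to 170 CPM) lie above the NCD libraries (63.3 to 84.6 CPM), and for Pnpla2 the circles of NCD and HFD+C2 are the lowest of the 12.

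Of the coat genes, Plin2 (chr4:86648386-86670060, GRCm38, minus strand) encodes the main perilipin of liver droplets, a protein that is degraded when it has no fat to bind. Its libraries were at 415, 627 and 477 CPM in NCD and at 841, 696 and 814 CPM in HFD. Every HFD library was above every NCD library, the closest pair being NCD replicate 2 and HFD replicate 2. The log2 change was 0.64 with an SE of 0.21 (95% interval 0.16 to 1.13), 1.56-fold, and edgeR's adjusted p was 0.0985. Plin3 (chr17:56277476-56292873, minus strand), a perilipin that also stays soluble in the cytosol and goes to newly forming droplets, was at 20.2, 21.3 and 21.3 CPM in NCD and at 29.3, 25.7 and 26.5 CPM in HFD. Both groups were tight and did not overlap, and the log2 change of 0.39 (SE 0.16, 95% interval 0.02 to 0.76) had an adjusted p of 0.155 in edgeR. Plin5 (chr17:56111601-56117596, minus strand), the perilipin of oxidative tissue that ties droplets to mitochondria, was at 48.3, 102 and 72.3 CPM in NCD and at 97.6, 77 and 91.9 CPM in HFD. NCD replicate 2 was the highest of these 6 Plin5 values, and the log2 change of 0.28 (SE 0.27, 95% interval -0.34 to 0.89) had an adjusted p of 0.523 in edgeR. Without NCD replicate 1, the lowest, the log2 change of Plin5 was 0.04, that of Plin2 0.51 and that of Plin3 0.35.

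Cideb (chr14:55754050-55758458, minus strand), a droplet and lipoprotein-loading factor of hepatocytes, was counted with 1, 5 and 17 reads in NCD and 78, 75 and 29 reads in HFD. In CPM these were 0.085, 1.05 and 0.698 in NCD and 2.59, 2.66 and 1.18 in HFD, with no overlap on this scale, NCD replicate 1 being under the floor of 3 reads. The log2 change of 1.93 (SE 0.73, 95% interval 0.27 to 3.59) was the largest point estimate of the 10 and the least precise, with an adjusted p of 0.130 in edgeR, and without NCD replicate 1 it was 1.46. Of its 1488 exonic bases, 1136 (76.3%) also lie in exons of Nop9 on the opposite strand. Whether the counting used strand is not given in the sources used here, so reads in that stretch may have been set aside as ambiguous or shared with Nop9, and the low level of Cideb is uncertain.

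Among the genes of the first lipolytic step, Pnpla2 (chr7:141455198-141460743, plus strand) was at 13.1, 28.7 and 30 CPM in NCD and at 62.1, 47.2 and 51.6 CPM in HFD. The groups were far apart, and NCD replicate 1, the library with the most reads outside genes, was the lowest of the 12. The log2 change was 1.18 (SE 0.30, 95% interval 0.49 to 1.88) with an adjusted p of 0.0561 in edgeR. Without NCD replicate 1 the log2 change was smaller, 0.87, and the adjusted p was 0.00393, the 1 of the 6 fits that each left out a library in which Pnpla2 was called. Its coactivator Abhd5 (chr9:122351608-122381524, plus strand) was at 15, 21.5 and 21.2 CPM in NCD and at 24.2, 21.7 and 24.6 CPM in HFD. The groups did not overlap on this scale, but NCD replicate 2 and HFD replicate 2 were nearly equal, and the log2 change of 0.31 (SE 0.20, 95% interval -0.14 to 0.75) had an adjusted p of 0.330 in edgeR and was 0.14 without NCD replicate 1. An antisense gene, A730085K08Rik, shares 16% of the exonic bases of Abhd5.

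The inhibitors of PNPLA2 gave no call. G0s2 (chr1:193272161-193273217, minus strand) was at 345, 148 and 253 CPM in NCD and at 287, 263 and 240 CPM in HFD. The NCD libraries were widely spread on both sides of the HFD ones, and the log2 change of 0.09 (SE 0.29, 95% interval -0.56 to 0.74) had an adjusted p of 0.856 in edgeR and was negative under other scalings of the libraries (-0.01 by upper quartile, -0.15 by reads in genes alone). It was 0.39 without NCD replicate 1 and -0.15 without NCD replicate 2. Hilpda (chr6:29272488-29275446, plus strand), an inhibitor induced by hypoxia and fatty acids, was at 1.53, 1.48 and 1.52 CPM in NCD and at 1.56, 1.45 and 1.06 CPM in HFD, from 7 to 47 reads a library. Its groups overlapped, and the log2 change of -0.14 (SE 0.42, 95% interval -1.09 to 0.81) had an adjusted p of 0.851 in edgeR and was also -0.14 without NCD replicate 1. These intervals leave room for sizeable changes in either direction in both inhibitors.

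Of the later lipases, Lipe (chr7:25379527-25398710, minus strand) was at 4.34, 5.27 and 9.04 CPM in NCD and at 10.2, 5.46 and 8.1 CPM in HFD. Its groups overlapped through NCD replicate 3, and the log2 change of 0.33 (SE 0.34, 95% interval -0.45 to 1.11) had an adjusted p of 0.546 in edgeR and was 0.05 without NCD replicate 1. An antisense gene, 4732471J01Rik, shares 15.6% of the exonic bases of Lipe. Mgll (chr6:88724412-88828360, plus strand) was at 63.3, 84.6 and 81.1 CPM in NCD and at 170, 120 and 166 CPM in HFD. All 3 HFD libraries were above all 3 NCD libraries, with HFD replicate 2 the lowest of its group. Mgll rose by a log2 change of 1.01 (SE 0.21, 95% interval 0.54 to 1.49), and edgeR's adjusted p was 0.0385. When single libraries were left out the log2 change stayed between 0.88 and 1.17, but the call was kept in 2 of 6 such fits: the adjusted p was 0.0616 without NCD replicate 3, and with HFD replicate 1, 2 or 3 left out it was 0.205, 0.0701 and 0.167. Without NCD replicate 1 the log2 change was 0.88, and with replicate numbers fitted as a block the call was lost (adjusted p 0.0591 in edgeR).

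**Figure D3:**
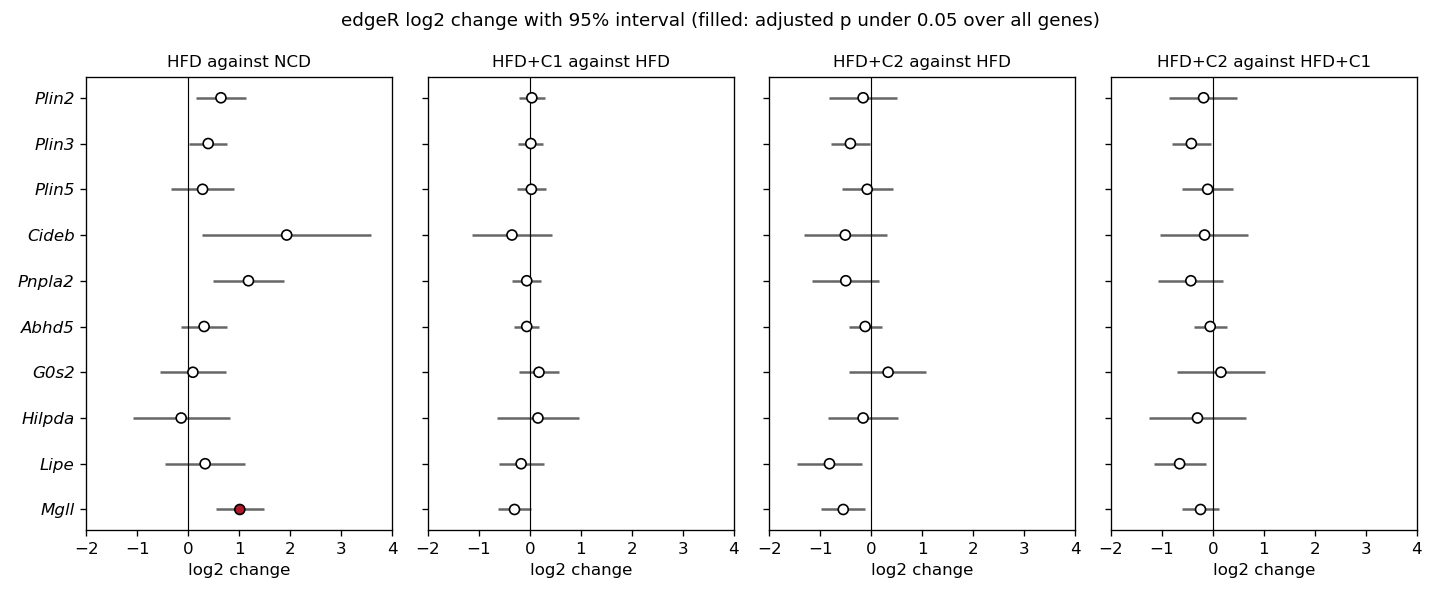
log2 change of each gene (edgeR estimate, point) with its 95% interval (line) in 4 comparisons, filled where the adjusted p over all genes was under 0.05. Mgll in HFD against NCD is the only filled point, and in HFD+C1 against HFD every interval includes 0.

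C1 was compared with diet alone in HFD+C1 against HFD. No difference was detected in the 10 genes: 0 of the 10 were called, where 0.0524% of 13358 genes were called, 0 had an unadjusted edgeR p under 0.05, as 7.75% of all genes did, and 0 had groups without overlap, as 12.3% of all genes did. The unadjusted count of 0 was 2 without HFD replicate 2, and 1 with no filter on low counts, with DESeq2, with the replicate block and without HFD+C1 replicate 1 or 2. The log2 changes ran from -0.35 (Cideb) to 0.18 (G0s2), 5 positive and 5 negative, with a median of -0.02 against 0.01 over all genes. That split rested on single libraries: 7 were positive without HFD replicate 1 and 2 without HFD replicate 2, with medians of 0.07 and -0.09, and 3 were positive without HFD+C1 replicate 1. Plin2 was at 823, 827 and 764 CPM under C1, Plin3 at 25.8, 28.3 and 28.4 CPM and Plin5 at 97.2, 80.1 and 95.7 CPM. These 3 perilipins had among the narrowest 95% intervals, -0.22 to 0.29, -0.23 to 0.26 and -0.25 to 0.31 on the log2 scale, so a change beyond those bounds lies outside what the libraries allow at that confidence. Pnpla2 was at 48.3, 55.1 and 50.7 CPM and Abhd5 at 20.9, 23.1 and 23.7 CPM under C1, with intervals of -0.34 to 0.21 and -0.31 to 0.19. For both genes the compound and diet libraries overlapped.

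The remaining genes were less precise under C1. G0s2 was at 356, 201 and 339 CPM and Cideb at 0.947, 2.2 and 2.02 CPM. Lipe was at 6.78, 6.77 and 7.66 CPM, and Hilpda at 2.46, 1.05 and 0.958 CPM, its highest value of all 12 libraries being in HFD+C1 replicate 1. Mgll, at 138, 113 and 120 CPM, had the smallest p of the 10: 1 of its 3 C1 libraries was clearly below the HFD range of 120 to 170 CPM, and the log2 change was -0.30 (95% interval -0.62 to 0.02), with an adjusted p of 0.678 in edgeR. All 7 macrophage markers had higher fitted levels under C1 than under HFD, each with an unadjusted p under 0.05 and none called by edgeR, with a median log2 change of 0.74. All 5 erythroid markers were lower under C1 (median log2 change -0.60, 3 with an unadjusted edgeR p under 0.05), as were 6 of 7 stellate cell and fibroblast markers (median -0.14), with none called. The part of those differences in these values was not tested.

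C2 was compared with diet alone in HFD+C2 against HFD. Here 9 of the 10 genes had lower fitted levels and G0s2 a higher one, but 0 were called, where 0.0222% of 13503 genes were called. The median log2 change was -0.29 over the 10 genes and 0.02 over all genes tested, of which 52.2% were higher. An unadjusted edgeR p under 0.05 was reached by Plin3, Lipe and Mgll, all lower, against 3.70% of all genes lower and 6.89% in either direction. Leaving out HFD replicate 1 took that count of 3 to 0, as did leaving out replicate 2 of HFD+C2. Groups did not overlap for Plin3 and Mgll, both lower, against 6.64% of all genes; scaled by reads in genes alone Abhd5 joined them, against 8.39%. Leaving out HFD+C2 replicate 1, all 10 had lower fitted levels, with a median log2 change of -0.32, and 0 were called. Without HFD+C2 replicate 2, 6 of the 10 were lower, so the sign of 3 genes rested on that library. All 7 macrophage markers had higher fitted levels under C2 than under HFD, 5 with an unadjusted p under 0.05 and none called by edgeR, with a median log2 change of 0.72, and all 6 endothelial markers were higher, with none called. The part of those differences was not tested.

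Plin3 was at 16.7, 20.8 and 24.1 CPM under C2, below all HFD libraries (25.7 to 29.3 CPM) and close to the NCD level. The log2 change was -0.41 (SE 0.17, 95% interval -0.80 to -0.02), with an adjusted p of 0.695 in edgeR. Without HFD+C2 replicate 1, the lowest of the 12 for Plin3, it was -0.28. Mgll was at 98, 97.3 and 119 CPM, all below the HFD libraries and all above the NCD libraries. Its log2 change was -0.55 (SE 0.19, 95% interval -0.98 to -0.12), also with an adjusted p of 0.695 in edgeR, and stayed between -0.69 and -0.46 when single libraries were left out (-0.50 without HFD+C2 replicate 1). Lipe was at 4, 3.52 and 5.99 CPM, from 80 to 143 reads a library, and its highest C2 value exceeded the lowest HFD value of 5.46 CPM. Its log2 change was -0.82 (SE 0.29, 95% interval -1.46 to -0.18), with the same adjusted p of 0.695 in edgeR, and ran from -1.08 to -0.60 over the fits that left out a library (-0.74 without HFD+C2 replicate 1).

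For Plin2, G0s2, Plin5 and Pnpla2 HFD+C2 replicate 1 lay apart from its group. Plin2 was at 1067, 448 and 607 CPM and G0s2 at 552, 237 and 209 CPM, replicate 1 being the highest of all 12 libraries for each gene. Plin5 was at 115, 68.8 and 70.6 CPM, again highest in replicate 1, whereas Pnpla2 was at 20.9, 41.8 and 51.3 CPM, lowest in replicate 1. The log2 change of Plin2 was -0.16 (95% interval -0.83 to 0.51) with this library and -0.58 without it, and that of Plin5 was -0.08 and -0.36. The log2 change of Pnpla2 was -0.50 (95% interval -1.16 to 0.15) with this library and -0.21 without it, and that of G0s2 changed sign, from 0.33 to -0.24. None of these 4 genes was called with or without it. Abhd5 (23.7, 21 and 20.7 CPM), Hilpda (1.5, 0.94 and 1.26 CPM) and Cideb (1.05, 1.68 and 1.8 CPM) overlapped with HFD, with log2 changes of -0.12, -0.16 and -0.51, and of -0.18, -0.32 and -0.31 without HFD+C2 replicate 1.

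The compounds, given at the same dose and for the same time, were set against each other in HFD+C2 against HFD+C1, the 1 pair of compounds in the series. No gene of the 10 was called, and 0 of 13229 genes were, a background of 0%; at an unadjusted edgeR p under 0.05 there were 608 genes (4.60%), DESeq2 called 3 genes, the other settings called 0 to 162, and 2 of the 10 genes were among the 1.79% that were lower. These were Plin3, with a log2 change of -0.42 (SE 0.17, 95% interval -0.79 to -0.04), and Lipe, with -0.65 (SE 0.23, 95% interval -1.16 to -0.13), each with an adjusted p of 0.841 in edgeR. For both, every C2 library lay below every C1 library, as in 6.09% of all genes. Without HFD+C2 replicate 1 the difference in Plin3 was -0.29 and that in Lipe -0.57. The count of 2 was 4 without that library, 0 without HFD+C1 replicate 3 or HFD+C2 replicate 2, and 1 in the fit of all 12 libraries or without HFD+C1 replicate 2. The other 8 genes had log2 differences from -0.43 (Pnpla2) to 0.16 (G0s2), and all 8 intervals included 0; without HFD+C2 replicate 1 these 8 ran from -0.61 (Plin2) to 0.04 (Cideb), with Pnpla2 at -0.14 and G0s2 at -0.42. The narrowest was that of Abhd5, -0.36 to 0.27, and the widest that of Hilpda, -1.25 to 0.65.

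Both compound groups were also compared with chow, using the NCD libraries of the diet comparison again. In HFD+C1 against NCD 0 of the 10 genes were called, where 3.40% of 13534 genes were called, and 4 had an unadjusted edgeR p under 0.05, all higher, against 11.7% of all genes. These were Plin2 (log2 change 0.67, SE 0.20, adjusted p 0.0857 in edgeR), Plin3 (0.40, SE 0.15, adjusted p 0.138), Pnpla2 (1.11, SE 0.29, adjusted p 0.0699) and Mgll (0.70, SE 0.18, adjusted p 0.0640). The same 4 genes had no overlap between groups, against 18.4% of all genes higher without overlap. Without NCD replicate 1, Plin2, Pnpla2 and Mgll were called, with log2 changes of 0.54, 0.80 and 0.57, and Plin3 was at 0.36. In HFD+C2 against NCD 0 of the 10 were called, where 1.60% of 13691 genes were called, and 0 had an unadjusted p under 0.05, against 22.4% of all genes. That count of 0 was 1 or 2 with no filter, DESeq2, the replicate block, the fit of all 12 libraries or HFD+C2 replicate 1 left out. Mgll was the 1 gene with C2 libraries wholly above NCD, against 14.3% of all genes (0 of the 10, with Mgll overlapping, when scaled by reads in genes alone), with a log2 change of 0.48 (95% interval -0.02 to 0.98), which was 0.34 without NCD replicate 1 and 0.52 without HFD+C2 replicate 1. Plin3, at a log2 change of -0.01 (95% interval -0.50 to 0.48), had nearly equal means in C2 and chow, 20.5 ± 3.72 and 20.9 ± 0.666 CPM (SD, n = 3), and its log2 change was -0.05 without NCD replicate 1 and 0.12 without HFD+C2 replicate 1. Leaving out both NCD replicate 1 and HFD+C2 replicate 1, Pnpla2 was called in that comparison. Against chow, the markers Cd68 (3.25-fold), Clec4f (1.91-fold), Col1a1 (4.33-fold) and Colec11 (1.73-fold) were called higher with C1. With C2, Colec11 (2.23-fold) and Lyve1 (7.16-fold) were called higher. Plin4, listed as an adipocyte marker, was called higher with C1 (log2 change 4.05) and with C2 (3.92). These genes mark macrophages, stellate cells, endothelium and fat cells, and their part in these values was not tested.

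Ratios of reads within a library do not depend on library size and set partners of the pathway against each other. The ratio of G0s2, the inhibitor, to Pnpla2, its target, was 26.3, 5.15 and 8.44 in NCD and 4.62, 5.56 and 4.65 in HFD. In HFD+C1 it was 7.37, 3.64 and 6.68, and in HFD+C2 26.4, 5.67 and 4.07. NCD replicate 1 and HFD+C2 replicate 1, the 2 libraries with the most reads outside genes, thus stood at nearly the same ratio, far above the other 10. The mean log2 ratio was lower in HFD than in NCD by a difference of -1.09, and the groups overlapped (exact two-sided permutation test, p = 0.2, adjusted p = 0.6 over 9 ratio tests). Without NCD replicate 1 that difference was -0.42. Against HFD the difference was 0.19 for C1 and 0.78 for C2 (exact permutation p = 0.6 for each), and without HFD+C2 replicate 1 the latter was -0.04.

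**Figure D4:**
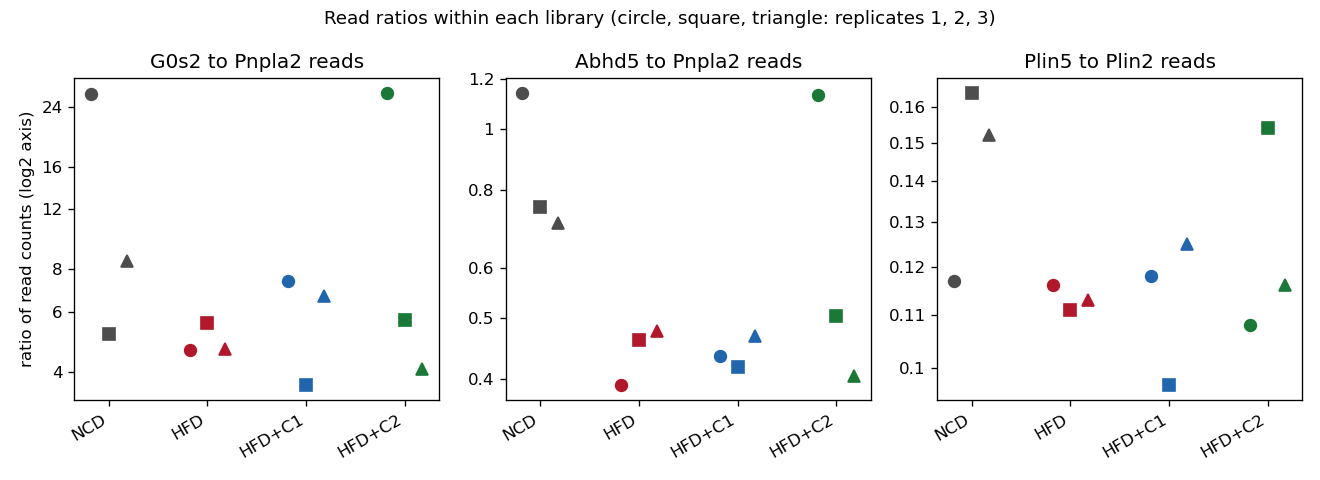
Ratio of read counts within each library on a log2 axis for G0s2 to Pnpla2, Abhd5 to Pnpla2 and Plin5 to Plin2, circles, squares and triangles for replicates 1, 2 and 3. The circles of NCD and HFD+C2 stand at 26.3 and 26.4 for G0s2 to Pnpla2 and at 1.14 and 1.13 for Abhd5 to Pnpla2, above the other 10 libraries.

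Abhd5, the coactivator, was counted at 1.14, 0.751 and 0.707 reads per read of Pnpla2 in NCD and at 0.39, 0.46 and 0.476 in HFD, with no overlap. The difference in mean log2 ratio was -0.94 (exact two-sided permutation p = 0.1, the smallest that 3 against 3 allow, adjusted p = 0.45) and ran from -1.07 to -0.73 when single libraries were left out. Lipase reads were thus more numerous relative to coactivator reads in each HFD library than in each NCD library. Under the compounds the ratio was 0.434, 0.418 and 0.468 with C1 and 1.13, 0.503 and 0.404 with C2, which overlapped with HFD (exact permutation p = 1 and p = 0.4). The difference of 0.48 for C2 was 0.03 without HFD+C2 replicate 1. Plin5 per read of Plin2, oxidative against storage coat, was 0.117, 0.164 and 0.152 in NCD and 0.116, 0.111 and 0.113 in HFD. The difference of -0.33 had p = 0.1 in the exact permutation test (adjusted p = 0.45), but NCD replicate 1 lay next to the HFD libraries, and without it the difference was -0.48. With C1 the ratio was 0.118, 0.0969 and 0.125 and with C2 0.108, 0.154 and 0.116, again overlapping with HFD (exact permutation p = 1 and p = 0.6).

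Several libraries departed from their group with the base composition of genes. Relative to the mean log2 CPM of the other 2 libraries of its group, Pnpla2 was at -1.11 in both NCD replicate 1 and HFD+C2 replicate 1, while G0s2 was at 0.83 and 1.31. Plin2 and Plin5 went opposite ways in them, at -0.40 and -0.82 in NCD replicate 1 and at 1.03 and 0.72 in HFD+C2 replicate 1. The GC-richest quintile of genes had a median deviation of -0.24 in the former library and -0.32 in the latter, and the GC-poorest quintile 0.11 and 0.16. Other libraries departed too: across 11724 genes the correlation of a library's deviation with GC was 0.42 in HFD replicate 1, -0.23 in HFD replicate 2, 0.27 and 0.26 in HFD+C2 replicates 2 and 3, -0.36 in HFD+C2 replicate 1 and -0.17 in NCD replicate 1. Genes are not independent replicates, and the libraries of a group share the mean they are set against. Pnpla2 and G0s2 are both GC-rich, with transcripts of 57% and 56.4% GC, at the percentiles 86.2 and 83.4 of genes. The part of base composition in the values of these genes was not tested.

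The rest of the droplet machinery was read from lists of related genes. Of 15 other coat, fusion and biogenesis genes tested, 4 were called higher in HFD than in NCD (Cidea, Cidec, Plin4 and Fitm1) and 1 lower (Acsl3), where 6.03% of all genes were called and 2.59% called higher. The fusion factors Cidea and Cidec, relatives of Cideb that let droplets merge into large ones, rose with the diet, as did the perilipin Plin4: Cidea was at 0.255, 0.633 and 0.0821 CPM in NCD and at 73.7, 29.2 and 68.2 CPM in HFD, and Cidec at 1.7, 5.06 and 1.93 CPM and at 73.3, 32.5 and 64.9 CPM. Their log2 changes were 8.08 (SE 0.62) and 4.50 (SE 0.48), with adjusted p of 0.00174 and 0.00431 in edgeR. Cidea in NCD rests on few reads, so its fold is not exact. Plin4, which coats small droplets and is a marker of fat cells as well, had a log2 change of 4.46 (SE 0.48, adjusted p 0.00431 in edgeR). For Cidea, Cidec and Plin4 the call held in 6 of 6 fits with 1 library left out. Fitm1, which helps fat bud into droplets, had a log2 change of 1.46 (adjusted p 0.0305 in edgeR), and Acsl3, an acyl-CoA synthetase of budding droplets, had -0.82 (adjusted p 0.0348). Their calls held in 3 and 2 of the 6 fits, Fitm1 losing its call without any 1 of the HFD libraries and Acsl3 without those or NCD replicate 3. The call of Acsl3 was also lost when replicate numbers were fitted as a block and when no filter on low counts was used. For all 5 genes the diet groups did not overlap. The diet changes of Plin2, Plin3 and Plin5 (0.64, 0.39 and 0.28) were thus smaller in size than that of Plin4, with 95% intervals ending at or below 1.13 where that of Plin4 starts at 3.38. A direct test between genes was not run.

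**Figure D5:**
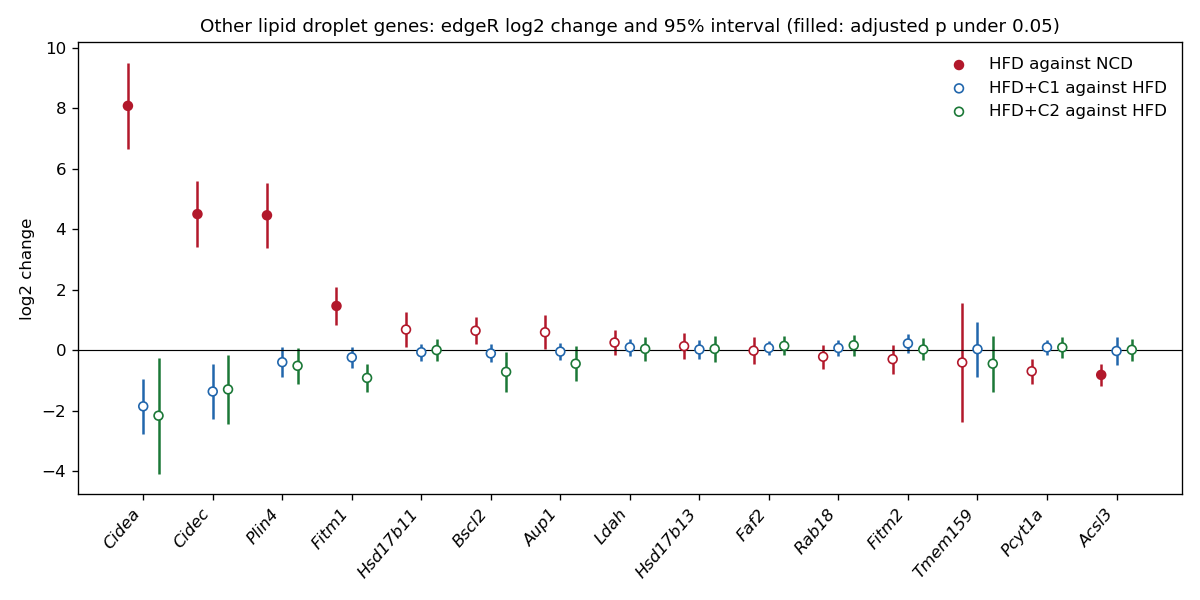
log2 change (edgeR estimate, point) and 95% interval (line) of 15 other lipid droplet coat, fusion and biogenesis genes, for the diet (HFD against NCD) and for each compound group against HFD, filled where the adjusted p over all genes was under 0.05. Cidea, Cidec, Plin4, Fitm1 and Acsl3 are filled for the diet, and no point is filled for the compounds.

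Under the compounds 0 of these 15 genes were called against HFD, where 0.0524% of all genes were called with C1 and 0.0222% with C2. At shares this low a count of 0 says little about a list. Cidea and Cidec were called with C2 when HFD+C2 replicate 1 was left out, and Cidea with C1 when HFD replicate 2 was. With no filter or the replicate block Cidea and Cidec were called with C1; with C2, Cidea, Cidec and Fitm1 were called with no filter and Fitm1 with DESeq2. Cidea was at 16.4, 5.45 and 25.8 CPM with C1 and at 32.7, 1.72 and 4.44 CPM with C2, with log2 changes of -1.86 (SE 0.42, adjusted p 0.206 in edgeR) and -2.17 (SE 0.85, adjusted p 0.695). The highest C2 value was that of HFD+C2 replicate 1, and without it the log2 change of Cidea was -4.22 (adjusted p 0.00171 in edgeR) and that of Cidec went from -1.30 to -2.21 (adjusted p 0.00860). Fitm1 was at 44.5, 35.6 and 39 CPM with C1 and at 20.7, 27.8 and 26.1 CPM with C2, with log2 changes of -0.24 and -0.92 (adjusted p 0.808 and 0.695 in edgeR). Of 18 other lipases and lipolysis regulators tested for the diet, 1 was called, a share near the 6.03% of all genes: Ces1d, a carboxylesterase that hydrolyses triglyceride in the endoplasmic reticulum for lipoprotein loading. Ces1d fell by 1.30 on the log2 scale (SE 0.22, adjusted p 0.0237 in edgeR), from 646, 1000 and 969 CPM in NCD to 344, 361 and 345 CPM in HFD, with no overlap, and was called in 3 of 6 fits that left out a library, losing its call without any 1 of the HFD libraries. Without NCD replicate 1 the count of 1 was 3, with Ces1f and Fabp4 added, and it was 0 without HFD replicate 1, 2 or 3. Ces1d is one of a cluster of similar Ces1 genes, and how reads were split between them is not given. Against HFD 0 of the 17 tested were called with C1 or C2, where 0.0524% and 0.0222% of all genes were called. Lpl was called with C2 when no filter was used.

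Of 12 regulators that act on droplet genes, 3 were called with the diet, where 6.03% of all genes were called. Ppara, the fatty acid receptor that drives oxidation, rose from 31.7, 61.4 and 41.6 CPM in NCD to 101, 103 and 87.4 CPM in HFD (log2 change 1.13, SE 0.25, adjusted p 0.0419 in edgeR). Pparg, the receptor that drives fat storage, rose from 9.44, 13.7 and 14.7 CPM to 24, 24.2 and 23.6 CPM (log2 change 0.94, SE 0.21, adjusted p 0.0419 in edgeR). Mlxipl, which encodes the carbohydrate-responsive factor ChREBP, fell from 120, 91.9 and 90.9 CPM to 58.2, 59.2 and 60.4 CPM (log2 change -0.75, SE 0.18, adjusted p 0.0460 in edgeR). In these 3 genes the groups did not overlap, and each call was kept in 2 of 6 fits that left out a library, those without NCD replicate 1 or 2. Pparg and Mlxipl were also not called with limma or with the replicate number as a block, Pparg and Ppara not when scaled by reads in genes alone, and Mlxipl not with no filter. Ppard, a further fatty acid receptor of the PPAR family, singled out after its values were seen, was at 7.57, 16.7 and 10.3 CPM in NCD and 4.72, 5.78 and 2.73 CPM in HFD, without overlap. Its log2 change was -1.34 (SE 0.37, adjusted p 0.0638 in edgeR), and it was called without NCD replicate 1 (-1.54, adjusted p 0.00403), with no filter, with DESeq2, in the fit of all 12 libraries and when scaled by reads in genes alone. With those settings and limma or the block, the count of 3 ran from 1 to 5. It was 0 without NCD replicate 3 or without HFD replicate 1, 2 or 3. With C1 or C2 against HFD 0 of the 12 regulators were called, where 0.0524% and 0.0222% of all genes were called.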

How the data were processed

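Liver RNA of 12 mouse libraries was analysed. The authors deposited 3 tables of values per gene under the label normalized count data. The values are whole numbers with unequal totals and were treated as raw read counts. Between the HFD columns that the tables share, 0 cells differ. Per the submitters' processing notes, Trimmomatic 0.39, STAR 2.7 and DESeq2 were used with the build mm10; the counting program, annotation, strand use and filters are not given in the sources used here. The 4 rows that name no gene, 27.3% to 58.2% of the reads of a library, were left out of library sizes and tests. Each of 6 comparisons was fitted on its own 6 libraries with edgeR 4.0.16 (quasi-likelihood test, TMM scaling, R 4.3.3) over every gene whose mean reached 10 counts, with Benjamini-Hochberg adjustment and a call at an adjusted p under 0.05. Printed CPM use TMM factors over all 12 libraries. Intervals are at 95%. Read ratios add 0.5 to each count. Gene positions and lengths came from GENCODE M21 (GRCm38) and promoters from RefSeq. The fit was tested on simulated counts, and the permutation test on short sets of fixed values.

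The 10 genes, the related lists and the markers were chosen with earlier results of these data known. All 10 genes were named in every comparison, and of the related lists every gene called in the diet comparison or, for Cidea, Cidec and Fitm1 under the compounds and for Ppard, Ces1f, Fabp4 and Lpl, genes picked after their values were seen. Of 18 coat, fusion and biogenesis genes 16 were in the tables, of 20 lipases and regulators of lipolysis all 20, and of 12 regulators all 12. P-values measure the spread between libraries, which may be in part technical. Counts of reads are not counts of molecules, so the floor of 3 reads covers counting error only. Alternatives were limma 3.58.1 on log2(CPM + 1), DESeq2 1.42.0, other scalings and filters, the replicate number as a block, a fit of all 12 libraries and leaving out each library; scaling by reads in genes alone and leaving out both libraries with many reads outside genes were added after seeing the data.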

Additional observations from a re-analysis of the deposited data

Results flagged for a closer look

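HFD+C2 replicate 1 had more reads outside the gene counts than any HFD library. Reads ambiguous between genes made up 9.04% of its total, against 3.91% to 4.96% in HFD. Reads that mapped to no annotated feature made up 10.9%, against 4.92% to 6.84%, and unmapped reads 21.9%, against 12.8% to 16.6%. None of the 10 genes had all libraries of the HFD+C1 comparison on one side of HFD and all of the HFD+C2 comparison on the other. No test of single outlying libraries was run.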

How the results depend on the processing

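Of the 10 genes, edgeR called 1 in HFD against NCD. The count was 4 with no filter on low counts, 3 with DESeq2, 3 in a fit of all 12 libraries, 0 with the replicate number as a block, and 0 to 2 when single libraries were left out (2 without NCD replicate 1). The diet calls over all genes moved too, from 836 to between 361 and 4493 under the other settings. They ranged from 23 to 1838 when single libraries were left out. With no filter the added calls were Plin2, Cideb and Pnpla2, and with DESeq2 Plin2 and Pnpla2. In HFD+C1 against NCD the count of 0 became 3 with no filter, 3 with DESeq2, 2 in the fit of all 12 libraries, 1 with the replicate block (Pnpla2) and 0 to 3 when single libraries were left out. In HFD+C2 against NCD it was 1 (Pnpla2) without HFD+C2 replicate 1 and NCD replicate 1, and 0 under the other settings. In HFD+C1 against HFD, HFD+C2 against HFD and HFD+C2 against HFD+C1 it was 0 under every setting run. Calls over all genes moved in each comparison by the ranges given below, and the counts of the 10 were not tested against those shifts. The cause of these differences was not tested.

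For the diet, the log2 change of G0s2 was -0.01 under upper-quartile scaling, -0.15 with reads in genes alone and -0.15 to 0.39 when single libraries were left out. That of Hilpda was 0.04 with no filter and -0.24 to 0.02 when single libraries were left out. Log2 ratio differences that changed sign when single libraries were left out were those of G0s2 to Pnpla2 for C2 (-0.04 to 1.31), Abhd5 to Pnpla2 for C1 (-0.09 to 0.05), and Plin5 to Plin2 for C1 (-0.08 to 0.10) and C2 (-0.01 to 0.24). Over all genes the diet calls, 836, ranged from 23 to 1838 when single libraries were left out and from 361 to 4493 under the other settings. For HFD+C1 against HFD these ranges were 2 to 102 and 0 to 206, for HFD+C2 against HFD 0 to 27 and 0 to 152, and for HFD+C2 against HFD+C1 0 to 1 and 0 to 162. Against NCD the 460 calls with C1 ranged from 11 to 1583 and from 284 to 3697, and the 219 with C2 from 2 to 1273 and from 100 to 3194.

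Deviations of libraries with the same replicate number did not correlate above 0.1 in all 3 pairs of any comparison, so pairing was not shown by that rule. The correlations were 0.31, 0.14 and 0.01 in HFD+C1 against NCD and 0.19, 0.12 and 0.04 in HFD+C2 against NCD. Each of the other comparisons held a negative value. Fitted with the replicate number as a block, the diet calls over all genes were 483, and Mgll kept its log2 change of 1.01 with an adjusted p of 0.0591 in edgeR; the diet calls of Acsl3, Pparg and Mlxipl were lost as well, with adjusted p of 0.0626, 0.0606 and 0.0764. Hilpda, Lipe and Cideb rest on few reads (1 to 306 a library), which limits what could be detected for them.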
